A study of Mus musculus with 20 samples.

Results

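G6pc, Fbp1, Pklr, Khk, Slc2a2, Gys2, Pygl and Pcx are 8 liver genes of glucose production, sugar uptake, fructose use and glycogen storage. They were taken by gene name from the 54532 genes of the count table. They were followed through bulk RNA-Sequencing of 14 tissue libraries from mice with colorectal liver metastasis (CRLM) grown from injected tumor cells and of 6 libraries of cells sorted from it. All animals were WT C57BL/6 mice; the labels of the tissue libraries give male mice and the methods female mice. Normal liver (con, 2 livers) was taken at day 0 after normal saline. In all other groups 1000000 MC38 cells, a mouse colon cancer line, had been injected through the spleen to reach the liver by the portal vein. L-con (1 liver) was liver free of tumor, remote from the metastasis, at day 12. Tissue centred on the tumor was graded as low-content (Lt, day 9), medium-content (Mt3 at day 9, Mt2 and Mt1 at day 11) and high-content tumor (Ht, day 12), each from 2 livers. Ht pieces were mostly tumor by the study's methods. Of the 3 Ht libraries, 2 were made identical by the methods and were summed here. The methods state a squared correlation above a higher limit for this pair than for biological replicates. By raw counts, a different measure, the 2 were no closer to each other than to the third Ht library (chi-square per degree of freedom 30.3 between them, 29.1 and 13.2 against it and 51.3 between the con livers). Thus Ht stands for 2 samples and the tissue series for 13. F4/80+ and CD11b+ cells (3 libraries each) were selected with microbeads from Mt2 metastases at day 11. A library of MC38 cells alone was not analysed here.

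The liver keeps blood glucose steady between meals by making new glucose from lactate, glycerol and amino acids and by breaking down glycogen. Pyruvate carboxylase (Pcx), phosphoenolpyruvate carboxykinase (Pck1), fructose bisphosphatase (Fbp1) and glucose 6-phosphatase (G6pc) carry the steps of gluconeogenesis that bypass the irreversible steps of glycolysis, and the transporter GLUT2 (Slc2a2) carries glucose across the hepatocyte membrane. After a meal, liver pyruvate kinase (Pklr) and ketohexokinase (Khk) serve the use of glucose and fructose, liver glycogen synthase (Gys2) stores glucose, and liver glycogen phosphorylase (Pygl) releases it again. Several of these enzymes have a sister form in other tissues, such as Pkm for Pklr, Gys1 for Gys2 and Pygb for Pygl. Albumin (Alb), the main protein secreted by hepatocytes, was taken as a reference for hepatocyte RNA, beside a list of other hepatocyte genes.

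All 8 genes are protein-coding and are placed on GRCm38, the build of the files. These are Pcx (ENSMUSG00000024892) at chr19:4510472-4621752, Fbp1 (ENSMUSG00000069805) at chr13:62864753-62888282, G6pc (ENSMUSG00000078650) at chr11:101367561-101377903, Slc2a2 (ENSMUSG00000027690) at chr3:28697903-28731359, Pklr (ENSMUSG00000041237) at chr3:89136142-89146784, Khk (ENSMUSG00000029162) at chr5:30921431-30931248, Gys2 (ENSMUSG00000030244) at chr6:142422613-142473109 and Pygl (ENSMUSG00000021069) at chr12:70190811-70231488; Fbp1, Gys2 and Pygl lie on the minus strand. A value stands for all exons of a gene. Of the exonic bases of Pklr, 22% also lie in exons of Hcn3 on the opposite strand, and since the sources used here do not say that strand was counted, reads of both may not be told apart there. The exons of the other 7 genes are shared with 0 bases of another gene. The RefSeq promoter table (GRCm38.p6) held windows for 7 of the 8 genes. The 250 bases before the start are shown for the genes at the ends of the range of differences from Alb in Ht (G6pc lowest, Khk and Pcx highest) and for the downstream start of Pklr, the one used in liver. Each is written 5′ to 3′ with motif matches in capitals. The windows are chr11:101367466-101367715 for G6pc, chr3:89136373-89136622 for Pklr, chr5:30921309-30921558 for Khk and chr19:4510222-4510471 for the upstream start of Pcx, all on the plus strand.
G6pc: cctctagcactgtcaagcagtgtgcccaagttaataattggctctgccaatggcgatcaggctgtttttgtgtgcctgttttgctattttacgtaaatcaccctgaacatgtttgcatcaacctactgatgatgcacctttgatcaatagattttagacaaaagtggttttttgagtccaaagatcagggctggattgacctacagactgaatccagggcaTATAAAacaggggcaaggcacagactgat
Pklr: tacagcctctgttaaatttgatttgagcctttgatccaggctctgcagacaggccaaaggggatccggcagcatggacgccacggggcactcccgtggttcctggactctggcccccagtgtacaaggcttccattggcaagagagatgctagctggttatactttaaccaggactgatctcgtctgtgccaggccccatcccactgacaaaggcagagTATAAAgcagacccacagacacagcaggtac
Khk: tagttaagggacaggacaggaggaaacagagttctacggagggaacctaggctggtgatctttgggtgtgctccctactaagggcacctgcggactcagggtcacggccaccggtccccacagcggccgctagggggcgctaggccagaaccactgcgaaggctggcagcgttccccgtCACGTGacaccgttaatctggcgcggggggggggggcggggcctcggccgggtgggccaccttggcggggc
Pcx: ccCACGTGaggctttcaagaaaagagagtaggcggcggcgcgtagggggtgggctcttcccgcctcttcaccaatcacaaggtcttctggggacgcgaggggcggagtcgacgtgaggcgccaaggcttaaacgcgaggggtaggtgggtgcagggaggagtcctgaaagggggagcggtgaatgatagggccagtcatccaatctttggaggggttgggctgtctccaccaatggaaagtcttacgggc
The capitals mark TATAAA, the TATA box, at position -29 from the start in G6pc and -31 in Pklr, and CACGTG, an E box, at -71 in Khk and -248 in Pcx. Across the 32851 windows of the table TATAAA was found on either strand in 12.4% and CACGTG in 6.02%. Exact matches to CAAAGTCCA (HNF4), TTGCGCAA (C/EBP), TGACGTCA (the cAMP response element) and TGTTTAC (forkhead) were present in 0.384%, 0.164%, 1.55% and 3.17% of all windows and in 0 of the 9 windows of the 7 genes, which says only that these letters are not in these windows.

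The tissue libraries held 16032085 to 18246623 counts and the sorted-cell libraries 17785496 to 20548370. Before TMM scaling, 3 counts thus correspond to 0.146 to 0.187 CPM. CPM is the count of a gene per 1000000 counts of its library, in tests and levels after TMM scaling, and different genes are compared only per kilobase of gene length (FPKM). The label liver was checked against 10 hepatocyte genes, such as apolipoproteins and transthyretin. Their summed level was 54962 to 58029 CPM in con and 1632 to 2259 CPM in Ht. Alb took 7.72% to 8.89% of all counts in con and 0.220% to 0.393% in the Ht libraries. The replicates of Mt2 and of Mt1 stood apart, with Alb 4.71-fold and 4.38-fold higher in replicate 1.

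Compared per gene length, Fbp1 led the 8 genes in normal liver at 804 ± 59.0 FPKM (SD, n = 2), followed by Khk at 264 ± 42.3 FPKM. G6pc stood at 187 ± 69.6 FPKM and Pcx at 166 ± 22.5 FPKM, and the range of G6pc overlapped those of Khk and of Pcx. Pygl (97.1 ± 25 FPKM), Pklr (63.4 ± 35.0 FPKM), Slc2a2 (57.1 ± 31.6 FPKM) and Gys2 (45.9 ± 11.2 FPKM) came last, each overlapping the next. In Ht, Fbp1 had 13.8 ± 0.905 FPKM (n = 2), Pcx 11.6 ± 2.17 FPKM and Khk 10.6 ± 0.961 FPKM. The other 5 genes had means between 1.34 and 2.54 FPKM there.

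**Figure D1:**
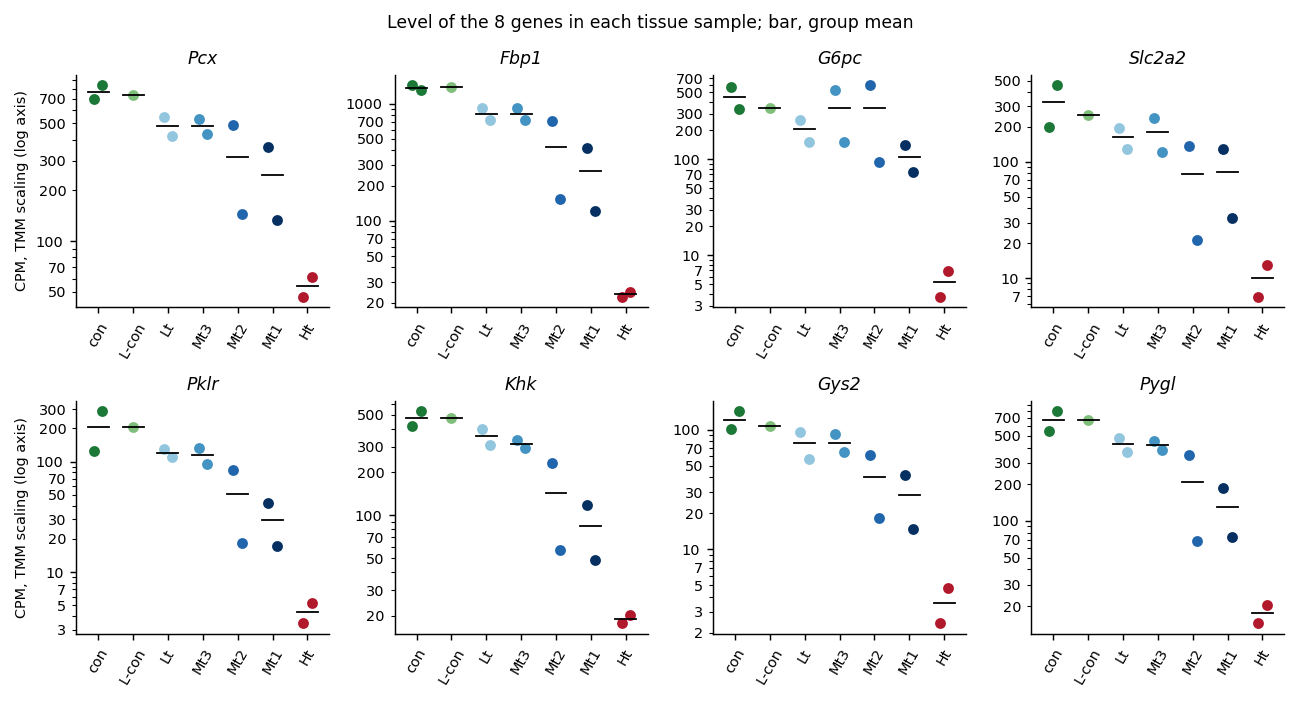
Level of each of the 8 genes (CPM after TMM scaling, log axis) in the 13 tissue samples by group; points are samples and bars are group means. All 8 genes are lowest in the 2 Ht samples, and replicate 1 of Mt2 and of Mt1 lies above replicate 2 for every gene.

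The gluconeogenesis genes were lowest in high-content tumor. Pcx, which makes oxaloacetate from pyruvate, was measured at 693 and 841 CPM in the con livers. In Lt Pcx was at 546 and 419.7 CPM and in Mt3 at 529 and 434, followed by 489 and 144 CPM for Mt2, 360.5 and 133 for Mt1 and 46.8 and 61.1 for Ht. Both Ht samples lay below every other sample, and Lt overlapped Mt3. Fbp1 reached 1440 and 1298 CPM in the con livers. Lt gave 917 and 729 CPM and Mt3 gave 909.7 and 732, followed by 708 and 154 CPM for Mt2, 415 and 122 for Mt1 and 22.5 and 24.7 for Ht. Its con samples lay above all tumor pieces and its Ht samples below them.

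G6pc, the last enzyme before glucose leaves the cell, had 569 and 332 CPM in the con livers. The level of G6pc in Lt was 256 and 153 CPM and that in Mt3 531 and 152, followed by 593 and 93.6 CPM for Mt2, 140.1 and 73.8 for Mt1 and 3.71 and 6.82 for Ht. The highest G6pc level of the series was thus in an Mt2 sample and not in con, and Ht stayed apart from all other groups. From its highest to its lowest sample G6pc spanned 160-fold, whereas Fbp1 spanned 64.0-fold and Pcx 18.0-fold.

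Slc2a2 and Pklr, the glucose transporter and the last enzyme of liver glycolysis, differed most of the 8 genes between the con livers. Slc2a2 stood at 200.1 and 458 CPM in the con livers. Its Lt pieces held 197 and 130.1 CPM and its Mt3 pieces 239.7 and 121, followed by 137 and 21.5 CPM for Mt2, 129 and 33.0 for Mt1 and 6.91 and 13.1 for Ht. For Pklr the counts gave 125 and 285 CPM in the con livers. In Lt Pklr was at 131 and 110 CPM and in Mt3 at 133 and 96.3, followed by 83.8 and 18.5 CPM for Mt2, 42.1 and 17.2 for Mt1 and 3.47 and 5.22 for Ht. For both genes con replicate 1 lay within the range of Lt and Mt3 and con replicate 2 above it. Khk, which traps fructose as fructose 1-phosphate, had 421 and 529 CPM in the con livers. Lt gave 402 and 309 CPM and Mt3 gave 337 and 295, followed by 229.8 and 57.6 CPM for Mt2, 119 and 48.6 for Mt1 and 17.7 and 20.2 for Ht. Neither con sample of Khk overlapped the tumor pieces.

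The glycogen enzymes showed the same order of con above Ht. Gys2, which builds glycogen, gave 101 and 143 CPM in the con livers. The level of Gys2 in Lt was 96.9 and 57.2 CPM and that in Mt3 92.1 and 64.8, followed by 61.8 and 18.5 CPM for Mt2, 42.1 and 14.8 for Mt1 and 2.42 and 4.73 for Ht. Pygl, which breaks it down, gave 548 and 792 CPM in the con livers. Its Lt pieces held 482 and 370.2 CPM and its Mt3 pieces 456 and 382, followed by 345 and 68.6 CPM for Mt2, 187 and 73.8 for Mt1 and 14.5 and 20.5 for Ht. For both genes Lt overlapped Mt3, Mt2 overlapped Mt1, and Ht lay below every other sample.

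How much of this expression was left at each tumor content was tested with the quasi-likelihood test of edgeR; p-values were adjusted by Benjamini-Hochberg across the 17187 genes that entered the test. Calls required a log2 fold change of 1 or more in size besides an adjusted p no higher than 0.05. From con to Ht all 8 genes fell, where 24.1% of all genes tested were called lower. G6pc fell by 6.42 on the log2 scale (SE 1.05, adjusted p = 7.416e-04 by edgeR), the largest decrease of the 8. Fbp1 fell by 5.86 (SE 0.84), Pklr fell by 5.57 (SE 0.82) and Pygl fell by 5.26 (SE 0.79). Gys2 fell by 5.11 (SE 0.75), Slc2a2 fell by 5.04 (SE 1.03) and Khk fell by 4.65 (SE 0.67). Pcx had the smallest decrease and fell by 3.83 (SE 0.64, adjusted p = 8.286e-04 by edgeR), to a 14.2-fold lower level. The median of the 8 genes was -5.18, beside 0.094 for all genes tested and -5.22 for the 10 hepatocyte genes, all 10 of which fell. Alb itself fell by 5.85 (SE 1.36). In bulk tissue, fewer hepatocytes and less of a transcript per hepatocyte cannot be told apart.

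From Mt to Ht, where Mt averages its 3 groups, all 8 genes also fell, and 13.4% of all genes tested were called lower. Pcx fell by 2.63 (SE 0.56, adjusted p = 0.0141 by edgeR) and G6pc fell by 5.47 (SE 0.96, adjusted p = 0.00911 by edgeR), the ends of the range. Alb fell by 4.39 (SE 1.20). Samples of Mt and Ht did not overlap for any of the 8 genes. With 1 sample left in Ht, 0 of the 8 genes passed without the summed pair (adjusted p from 0.139 to 0.211, edgeR) or without the other sample (from 0.0845 to 0.138), with log2 changes between -5.96 and -2.45. A group of 1 sample adds nothing to the estimate of the spread, which then comes from the other groups, so these fits, and those below that leave 1 sample in con or Ht, hold fewer samples and assume that the lone sample varies like the others. With Mt of day 11 only, G6pc, Fbp1, Gys2 and Pygl passed, and without Mt3 replicate 1 Slc2a2 did not (-3.20, adjusted p = 0.0568, edgeR).

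From con to Lt 0 of the 8 genes were called, where 12.7% of all genes tested were called and 0.256% were called lower. The estimates ran from -0.42 for Khk (SE 0.58) to -1.14 for G6pc (SE 0.84, adjusted p = 0.394 by edgeR). At an unadjusted p under 0.05 there were 0 of the 8 and 4917 of all genes, and DESeq2 also called 0 of the 8. With no filter on low counts G6pc (-1.14, adjusted p = 0.00396) and Slc2a2 (-1.02, adjusted p = 0.00592, edgeR) passed. Except for Pklr, the Lt samples lay below both con samples for each gene.

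**Figure D2:**
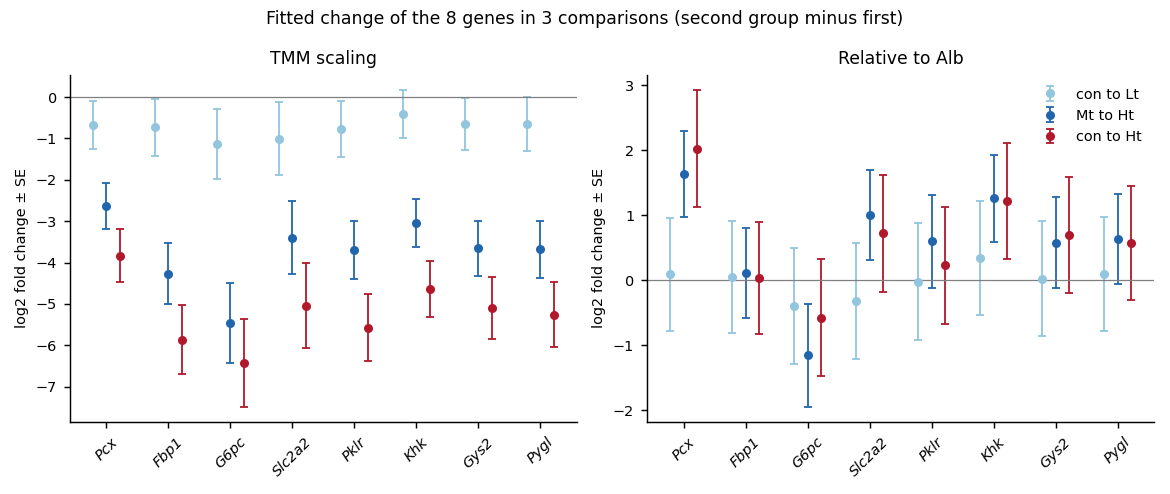
Fitted log2 fold change of each gene, with its standard error, from con to Lt, Mt to Ht and con to Ht, under TMM scaling (left) and relative to Alb (right). Under TMM scaling the values of con to Ht lie between -6.42 and -3.83; relative to Alb they lie between -0.57 and 2.02, with Pcx highest.

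Levels were next set against Alb, as reads per 1000 Alb reads, and tested in a fit over all genes in which the Alb count of a library took the place of its depth. The median of all genes in this fit was 0.93 from con to Lt, 3.93 from Mt to Ht and 5.99 from con to Ht on the log2 scale. The share of genes called higher was 90.8% from Mt to Ht and 91.0% from con to Ht, and 1 of the 8 genes, Pcx, was called in each. All 8 genes lay below these medians. Their own median from con to Ht was 0.63, beside 0.62 for the 10 hepatocyte genes, which ranged from -0.49 to 3.40. A call here compares a gene with Alb and not with other genes. Alb itself was lower in Ht than in con against the 10 hepatocyte genes, at 2231 and 1979 reads per 1000 reads of that list in con, 996 and 1105 in Ht and 1095 to 2021 in the other samples, so that a change from con to Ht is higher against Alb than against that list.

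Pcx was the gene that rose against Alb, from 5.36 and 7.74 reads per 1000 Alb reads in the con livers. In Lt Pcx was at 5.53 and 8.44 reads per 1000 Alb reads and in Mt3 at 6.48 and 8.09, followed by 8.89 and 12.3 reads per 1000 Alb reads for Mt2, 6.18 and 10.0 for Mt1 and 28.8 and 24.5 for Ht. Both Ht samples stood above all others. Pcx rose by 2.02 on the log2 scale from con to Ht (SE 0.90, adjusted p = 0.0350 by edgeR) and by 1.64 from Mt to Ht (SE 0.66, adjusted p = 0.0203). The con to Ht call of Pcx was lost without con replicate 1 (1.78, adjusted p = 0.221), con replicate 2 (2.31, adjusted p = 0.122), the summed Ht pair (1.90, adjusted p = 0.110) or Ht replicate 2 (2.14, adjusted p = 0.0792), all by edgeR. Its Mt to Ht call was lost without Mt3 replicate 1 (1.59, adjusted p = 0.0662), the summed Ht pair (1.52, adjusted p = 0.121) or Ht replicate 2 (1.75, adjusted p = 0.0738), and with Mt of day 11 only (1.52, adjusted p = 0.0877), all by edgeR. With the 10 hepatocyte genes in place of Alb, Pcx passed from Mt to Ht (1.09, adjusted p = 0.0205) and not from con to Ht (1.03, adjusted p = 0.0811, edgeR); with no filter on low counts its con to Ht call was lost too (adjusted p = 0.0633).

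Khk and G6pc lay on either side of Alb without a call. Khk had 3.26 and 4.86 reads per 1000 Alb reads in the con livers. Lt gave 4.07 and 6.21 reads per 1000 Alb reads and Mt3 gave 4.13 and 5.49, followed by 4.17 and 4.93 reads per 1000 Alb reads for Mt2, 2.04 and 3.65 for Mt1 and 10.9 and 8.08 for Ht. Its Ht samples lay above all others, yet its difference did not pass from Mt to Ht (1.26, SE 0.67, adjusted p = 0.0769 by edgeR) or from con to Ht (1.23, SE 0.89, adjusted p = 0.189). Khk passed from Mt to Ht with Ht as 3 libraries (1.36, adjusted p = 0.0209, edgeR) and without Mt1 replicate 2 (1.42, adjusted p = 0.0360, edgeR). With the hepatocyte genes in place of Alb the Khk differences were 0.71, adjusted p = 0.132 from Mt to Ht and 0.23, adjusted p = 0.696 from con to Ht (edgeR), and Ht replicate 2 (8.93 reads per 1000 hepatocyte reads) lay below con replicate 2 (9.62) and L-con (9.33). G6pc had 4.40 and 3.05 reads per 1000 Alb reads in the con livers. The level of G6pc in Lt was 2.60 and 3.07 reads per 1000 Alb reads and that in Mt3 6.51 and 2.82, followed by 10.8 and 8.01 reads per 1000 Alb reads for Mt2, 2.40 and 5.55 for Mt1 and 2.28 and 2.73 for Ht. Both Mt2 samples were the highest of the series per Alb read. Per 1000 hepatocyte reads Mt2 replicate 2 (8.77) lay below Mt3 replicate 1 (12.8) and con replicate 1 (9.81), and Mt2 replicate 1 (16.6) was the highest. The G6pc difference from Mt to Ht was -1.16 (SE 0.79, adjusted p = 0.162 by edgeR). With the hepatocyte genes in place of Alb it was -1.74, adjusted p = 0.0142 (edgeR), which passed, and from con to Ht it passed as well (-1.58, adjusted p = 0.0402, edgeR).

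Fbp1 stayed nearest to Alb, with 7.12 to 14.8 reads per 1000 Alb reads over all 13 samples and a con to Ht difference of 0.04 (SE 0.86). Pygl ranged from 3.20 to 8.93, Slc2a2 from 1.55 to 5.24, Pklr from 0.722 to 2.62 and Gys2 from 0.722 to 1.90 reads per 1000 Alb reads. Slc2a2 (4.25 and 5.24) and Pygl (8.93 and 8.21) were, like Pcx and Khk, higher in both Ht samples than in the 11 other samples, where their highest values were 4.21 and 7.44. Of the summed Ht pair, 1 library held Slc2a2 at 4.04 reads per 1000 Alb reads, below con replicate 2 (4.21). Per 1000 hepatocyte reads, of these 4 genes Pcx alone was higher in both Ht samples than in all others. The con to Ht differences relative to Alb were 0.57 for Pygl, 0.72 for Slc2a2, 0.23 for Pklr and 0.69 for Gys2, each smaller than its SE. With the hepatocyte genes as reference the sign of all 4 and of Fbp1 turned, to values between -0.97 and -0.23, and none of the 5 passed. From con to Lt 0 of the 8 genes were called relative to Alb, where 4.18% of all genes were called and 2831 had an unadjusted p under 0.05 by edgeR, none of them among the 8.

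**Figure D3:**
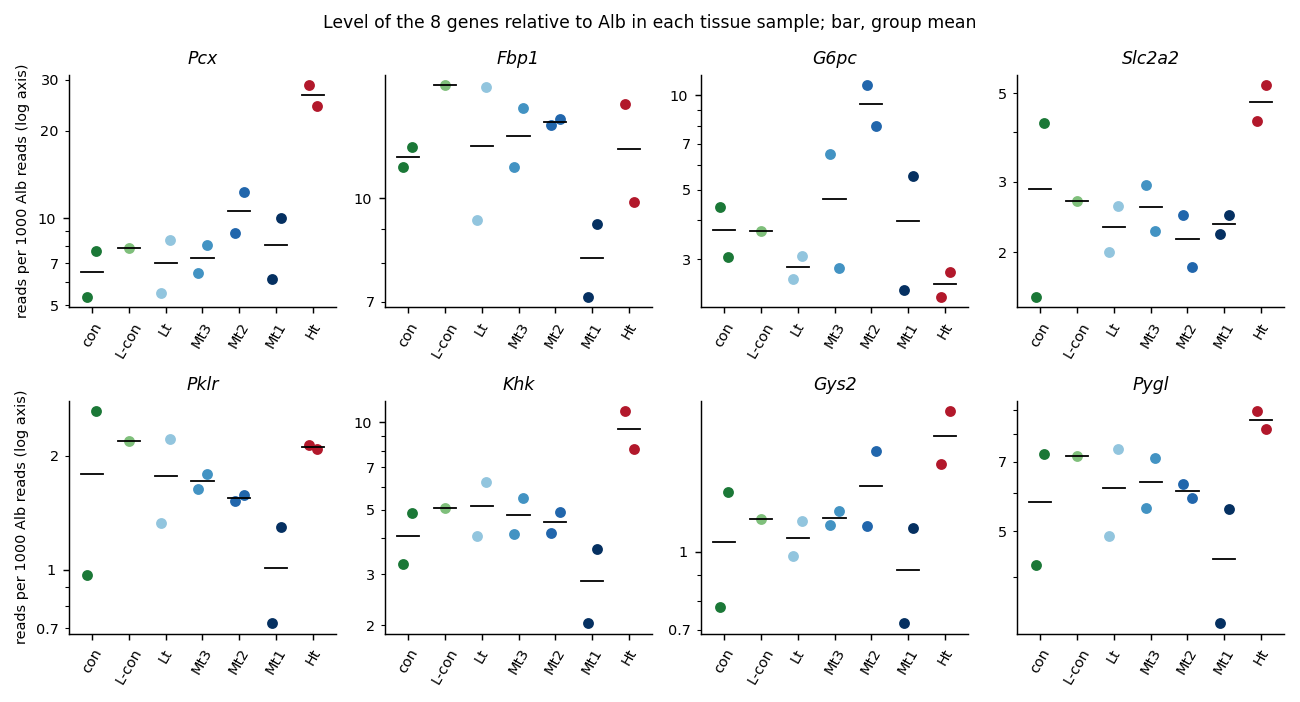
Reads of each gene per 1000 Alb reads (log axis) in the 13 tissue samples by group; points are samples and bars are group means. Pcx, Khk, Slc2a2 and Pygl are highest in the 2 Ht samples, G6pc is highest in the 2 Mt2 samples on this ratio, and Fbp1 stays between 7.12 and 14.8.

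Markers of other cells moved with tumor content beside these ratios. The summed level of 9 macrophage genes was 430 to 683 CPM in con and 3173 to 3253 CPM in Ht, and that of 6 proliferation genes 9.18 to 14.4 CPM and 887 to 904 CPM. The 6 adipocyte genes, from a tissue rich in Pcx, summed to 18.1 to 33.5 CPM in con. Their sum was 25.9 to 101 CPM in Lt and 10.9 to 11.1 CPM in Ht. Adipoq and Lep were at 0 in both con and Ht, and Plin1 was at 0 in con. The 6 kidney tubule genes, from the other gluconeogenic organ, summed to 0.442 to 1.74 CPM in con and 8.44 to 9.05 CPM in Ht. Slc34a1, Umod and Aqp2 were at 0 in both, and Slc12a1 was at 0 in con. The 6 enterocyte genes summed to 5.66 to 7.94 CPM in con and 3.38 to 4.75 CPM in Ht, but went both ways. Of the 3 tested from con to Ht 1 was called lower and 1 higher, where 49.9% of all genes tested were called. Their log2 changes ran from -2.83 to 8.73. Cdx1, Cdx2, Krt20 and Cdh17 were at 0 in con, and of these Cdx2 and Krt20 were at 0 in Ht. The part of these markers in the ratios was not tested.

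The sister forms of the liver enzymes were set beside the members. Pkm, the pyruvate kinase of most other tissues, rose by 4.69 on the log2 scale from con to Ht (SE 0.50, adjusted p = 1.352e-04 by edgeR), from 28.1 to 725 CPM, and by 3.21 from con to Lt (SE 0.47). As a share of the FPKM of Pklr plus Pkm, Pklr made up 90.2% ± 6.95 (SD, n = 2) in con and 80.3% in L-con. Lt had a Pklr share of 43.8% ± 16.6 and Mt3 one of 39.5% ± 10.1. The share was 15.6% ± 16 for Mt2, 8.45% ± 6.03 for Mt1 and 0.925% ± 0.311 for Ht (n = 2 each). Gys2 made up 98.2% ± 0.256 of Gys2 plus Gys1 in con and 24.9% ± 8.88 in Ht, and Pygl 97.8% ± 1.22 of Pygl plus Pygb in con and 10.9% ± 2.89 in Ht. The share of G6pc beside G6pc3 was 98.4% ± 0.696 and 24.1% ± 5.83, and that of Slc2a2 beside Slc2a1 88.0% ± 8.32 and 17.9% ± 6.87.

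Of these partners, Gys1 rose by 2.24 (SE 0.27), Pygb by 3.35 (SE 0.33) and G6pc3 by 1.23 (SE 0.30) on the log2 scale from con to Ht. Slc2a1, the transporter GLUT1, did not pass (0.31, SE 0.22, adjusted p = 0.241 by edgeR), and Aldoa stayed under the fold threshold (0.67, SE 0.25). Fbp2 was left out by the filter on low counts. The hexokinases Hk2 (3.27, SE 0.39) and Hk3 (2.23, SE 0.44) rose.

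**Figure D4:**
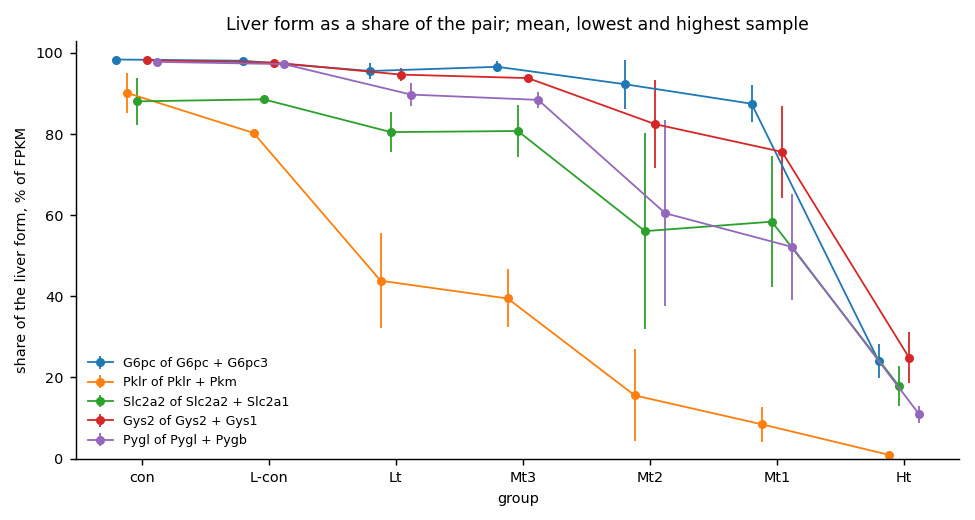
Share of the liver form in the length-scaled reads (FPKM) of 5 enzyme or transporter pairs by group; points are means and vertical lines run from the lowest to the highest sample, with 1 sample in L-con. The mean share of Pklr is 43.8% in Lt, where the next lowest, Slc2a2, has 80.5%; in Ht the 5 means lie between 0.925% and 24.9%.

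The 8 genes were set beside 86 other genes of sugar handling, of which 84 were tested. From con to Ht 45 fell and 14 rose, with a median log2 change of -1.475, where 49.9% of all genes tested were called. From Mt to Ht 37 fell and 2 rose, beside 14.9% of all genes, and from con to Lt 0 fell and 12 rose, beside 12.7%. The 39 calls from Mt to Ht became 12 with Mt of day 11 only, 0 without the summed Ht pair and 0 without Ht replicate 2, and the 12 from con to Lt became 2 without con replicate 2 and 4 without Lt replicate 2.

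From con to Ht, 24.1% of all genes tested were called lower and 49.9% in either direction, and the counts of single lists stand beside these shares with no test of a list. Among the other gluconeogenesis genes 11 of 16 tested fell and 2 rose from con to Ht. Sds, which turns serine into pyruvate, fell by 8.09 (SE 1.27), and the tyrosine aminotransferase gene Tat fell by 7.19 (SE 1.55). Pck1 fell by 5.69 (SE 1.12), from 3990 to 77.3 CPM. The glucose 6-phosphate transporter gene Slc37a4, whose product works with that of G6pc, fell by 4.58 (SE 0.74). Those that rose were G6pc3 and the mitochondrial form Pck2 (2.91, SE 0.31).

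Of 18 genes of glucose uptake and glycolysis 4 fell and 7 rose. Pfkfb4, an enzyme that sets the level of an activator of glycolysis, rose by 3.50 (SE 0.53). Of 8 genes of fructose and polyol use 6 fell and 1 rose. The fructose transporter gene Slc2a5 fell from 4.55 CPM in con to below the level of 3 counts in Ht. Tkfc, a kinase of the same fructose route as Khk, fell by 3.69 (SE 0.65). Aldose reductase, Akr1b3, rose by 3.20 (SE 0.36).

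Of 4 galactose genes 2 fell, Galm by a log2 change of -5.20 (SE 0.79) and Galt by one of -2.90 (SE 0.54). Of 21 tested glycogen genes 11 fell and 4 rose. The glycogen targeting subunit genes Ppp1r3c and Ppp1r3b had log2 changes of -6.75 (SE 1.24) and -6.08 (SE 0.92). Another, Ppp1r3d, rose by 5.08 (SE 0.53) from 0.177 and 0.661 CPM in the con livers. The lower of these values lay below the level of 3 counts, so the size of this rise is uncertain. Of 17 regulators 11 fell and 0 rose. Klf15, a transcription factor active in fasting, fell by 5.86 (SE 1.03), and Mlxipl, which encodes the sugar-sensing activator ChREBP, fell by 5.80 (SE 0.56).

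L-con showed the 8 genes in liver remote from a tumor, with 1 library and therefore no test. All 8 lay within the range of the con samples, at 345 CPM for G6pc, 1381 for Fbp1, 205 for Pklr, 476 for Khk, 252 for Slc2a2, 109 for Gys2, 675 for Pygl and 736 for Pcx. Of 12857 genes with a mean of at least 2 CPM, 37.5% lay above the con range and 33.9% below it. Relative to Alb, Fbp1 (14.8), Khk (5.09) and Pcx (7.87 reads per 1000 Alb reads) lay above both con samples and the other 5 within their range, where 73.0% of the same 12857 genes lay above and 6.23% below. Alb itself was lower, at 93589 CPM beside 108749 and 129444 CPM in con.

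Other genes of L-con lay outside the con range. Pck1 was below it at 2474 CPM (con 3401 and 4580), while Pkm was above it at 78.0 CPM (con 22.7 and 33.5) and Hk3 at 17.2 CPM (con 2.73 and 8.14). Of 11 genes induced by fasting 7 lay below con, among them Pdk4 at 6.01 CPM (con 11.1 and 13.01), beside 7 of the 10 hepatocyte genes, 8 of 17 other gluconeogenesis genes, 9 of 17 regulators and 33.9% of all genes, and 1, Lpin1, lay above at 1047 CPM (con 591 and 708). Of 11 genes induced by insulin and carbohydrate 5 lay below, among them Scd1 at 9933 CPM (con 15437 and 22713), and Thrsp lay above at 231 CPM (con 144 and 177). All 9 macrophage genes (summed 1176 CPM) and all 6 proliferation genes (summed 90.8 CPM) lay above con.

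The con livers themselves differed in genes of feeding state and time of day. Igfbp1, which is repressed by insulin, was at 254 CPM in con replicate 1 and 34.6 CPM in con replicate 2. The clock genes Dbp (0.442 and 8.76 CPM) and Nr1d1 (21.6 and 85.1 CPM) were lower in replicate 1, and Arntl (55.9 and 35.1 CPM) was higher there. G6pc was 1.72-fold higher in con replicate 1, and Pklr and Slc2a2 were 2.28-fold and 2.29-fold higher in replicate 2. The part of feeding or time of day in these differences was not tested.

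Sorted cells showed which of the 8 genes were read in cells selected from the metastases, where hepatocyte genes were read as well. The 9 macrophage genes summed to 24593 to 26299 CPM in F4/80+ and 23000 to 41296 CPM in CD11b+ cells, and the 10 hepatocyte genes to 78.5 to 119.9 CPM and 39.8 to 144 CPM. Gys2 had 0 counts in all 6 libraries, which allows up to 3 counts in each. G6pc and Pklr had at most 3 counts in 5 of the 6 libraries and Slc2a2 in 3 of them, and Fbp1 had 3 to 10 counts. Pygl, in contrast, had 1280 to 2950 counts, Khk 405 to 889 and Pcx 94 to 169.

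Pygl was at 69.0 to 85.7 CPM in F4/80+ cells and 106 to 139 CPM in CD11b+ cells, beside 345 and 68.6 CPM in Mt2 tissue, their source, and 14.5 and 20.5 CPM in Ht tissue, both scaled apart from the sorted cells. Its F4/80+ libraries all lay below its CD11b+ libraries, but the difference was not called (-0.75 on the log2 scale, SE 0.17, adjusted p = 0.153 by edgeR). The 8 neutrophil genes had lower estimates there as well, but 0 of the 8 were called. They summed to 186 to 562 CPM in F4/80+ and 1358 to 4507 CPM in CD11b+ cells, with none at 0 in either. Their median log2 difference was -3.55, beside -0.004 for all genes. Their part in the Pygl difference was not tested. DESeq2 gave Pygl an adjusted p of 0.00554, with a change still under the fold threshold. Khk was at 21.6 to 29.4 CPM in F4/80+ and 22.9 to 58.5 CPM in CD11b+ cells (-0.47, SE 0.34), and Pcx at 6.48 to 8.05 and 6.18 to 8.41 CPM (-0.057, SE 0.21). Of the 3 genes tested here 0 were called by edgeR and 0 by DESeq2, where 0.0771% of 14263 genes were called, and 1 of the 3, Pygl, was among the 1503 genes with an unadjusted p under 0.05. Per 1000 Alb reads the sorted cells held 129 to 629 reads of Khk, 308 to 3826 of Pygl and 28.4 to 219 of Pcx. The highest tissue values were 10.9 for Khk, 8.93 for Pygl and 28.8 for Pcx. For Pcx the lowest sorted library thus lay within the tissue range. What the sorted cells added to the tissue levels was not tested.

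**Figure D5:**
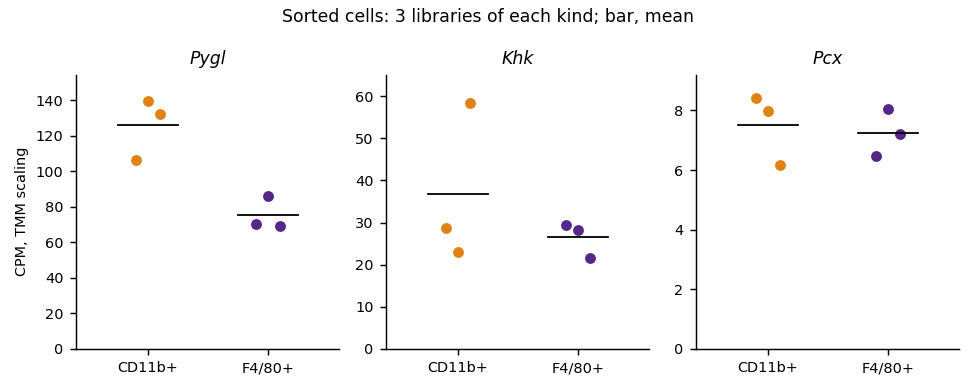
Members read in sorted cells (CPM after TMM scaling) in 3 CD11b+ and 3 F4/80+ libraries from Mt2 metastases; points are libraries and bars are means. Pygl lies between 106 and 139 CPM in CD11b+ and between 69.0 and 85.7 CPM in F4/80+ cells, while Khk and Pcx overlap between the populations.

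The genes most like each member were found by Pearson's r of log2(CPM + 1) over the 13 tissue samples among 12849 genes, as a description, since all samples share the change in liver content. Khk was followed most closely by Nit2 (r = 0.999) and Pecr, Fbp1 by the coagulation factor gene F7 (r = 0.999) and Aldh8a1, and Pygl by the sorbitol dehydrogenase gene Sord (r = 0.999) and Pbld2. Gys2 was nearest to Bbox1 (r = 0.998) and Agmo, Pcx to Stard10 (r = 0.998) and Slc10a5, Pklr to Hdac11 (r = 0.995) and Cd59a, and Slc2a2 to Acsf2 (r = 0.991) and Slc22a23. G6pc had the least close neighbours, Sel1l3 (r = 0.983) and Arl4d (r = 0.978). The r with Alb ranged from 0.951 for G6pc to 0.989 for Fbp1.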

How the data were processed

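RNA of 14 tissue and 6 sorted-cell libraries was made into libraries with the NEBNext Ultra kit and sequenced. The authors deposited raw counts per gene, not normalized, made with HISAT2 2.0.5 and featureCounts 1.5.0-p3 on GRCm38 per the labels; further settings are not given in the sources used here. Depths stand in the report; the floor of 3 counts covers counting error only, and PCR reads are not independent molecules.

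Groups came from the sample labels. Libraries 1 and 3 of Ht were summed. R 4.3.3 and edgeR 4.0.16 served for the tests (TMM, filterByExpr, quasi-likelihood F test, Benjamini-Hochberg over all genes): 1 fit of 13 tissue samples in 7 groups, 1 with the Alb count as library size, and 1 of the 6 sorted-cell libraries. The SE was taken from the F statistic. FPKM used the gene lengths in the files. The code was tested on simulated data. The members, lists and tests were chosen with earlier results of these data known.

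Alternatives were DESeq2 1.42.0, other scalings and filters, no threshold on the fold, Ht as 3 libraries, a replicate block and leaving out each sample; Mt of 1 day and a block with exchanged numbers were added after seeing the data. Named genes are the members, Alb, 14 partner genes, the 2 called genes with the largest change in each direction per sugar list from con to Ht, the 2 genes most like each member and, for L-con, the genes with the largest difference per feeding or clock list. Some of these genes are not reported here. By the methods each sample of a tissue group was a separate liver; nothing says so of the sorted-cell libraries, so their p-values may measure technical spread only. Promoter windows came from RefSeq (GRCm38.p6), matched by symbol.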

Additional observations from a re-analysis of the deposited data

How the results depend on the processing

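Over all alternatives run, including each sample left out, the 8 genes stayed called lower from con to Ht under TMM scaling. Where a call or sign changed, the cause was not tested. With the hepatocyte list in place of Alb the sign turned, from con to Lt to -0.42 for Fbp1, -0.12 for Khk, -0.41 for Gys2, -0.36 for Pygl and -0.37 for Pcx, from Mt to Ht to -0.46 for Fbp1, and from con to Ht to -0.97 for Fbp1, -0.73 for Pklr, -0.23 for Slc2a2, -0.28 for Gys2 and -0.41 for Pygl. With this list 2 members (G6pc and Pcx) were called from Mt to Ht in place of 1, and 0 other sugar genes from con to Lt in place of 1.

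With no filter 2 members and 25 other sugar genes were called from con to Lt, in place of 0 and 12; relative to Alb the calls were 3 other genes from con to Lt and 0 members from con to Ht. Ht as 3 libraries gave 2 members from Mt to Ht and 2 other genes from con to Lt relative to Alb. Mt of day 9 only gave Fbp1 -0.063 relative to Alb. Mt of day 11 only gave 4 members and 12 other genes from Mt to Ht, and 0 members relative to Alb. Scaling by total counts gave Pcx 0.018 between the sorted cells.

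Same-numbered samples deviated together among Lt, Mt3, Mt2 and Mt1 (r from 0.24 to 0.72 over the 6 pairs of groups), where replicate 1 had the higher Alb in each, and not in the 9 pairs with con or Ht (r from -0.36 to -0.059), between Mt as a whole and Ht (r = -0.39) or in the sorted cells (r = -0.043, -0.14 and 0.012). No label ties a number to a shared animal, batch or day, and each tissue comparison involves con or Ht. The block was therefore kept as an alternative. Mt to Ht averages Mt3, Mt2 and Mt1, whose same-numbered samples deviated together. The Mt samples may thus not be independent, and the p-values from Mt to Ht may be too low. With a replicate block, 2 members (Pcx and, at 1.32, adjusted p = 0.0359, Khk) were called from Mt to Ht and 5 other genes from con to Lt relative to Alb, and Pklr stood at 0.037 there; with exchanged numbers in the block these were 4, 4 and 0.079.

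Leaving out 1 sample at a time gave 0 to 8 members and 0 to 44 other genes from Mt to Ht and 2 to 12 other genes from con to Lt; relative to Alb it gave 0 to 2 members from Mt to Ht, 0 to 1 from con to Ht and 0 to 6 other genes from con to Lt. The estimates relative to Alb ranged from -0.15 to 0.34 for Fbp1 from Mt to Ht, from -0.22 to 0.26 for Fbp1 and -0.31 to 1.12 for Pklr from con to Ht, and, from con to Lt, from -0.31 to 0.35 for Fbp1, -0.57 to 0.87 for Pklr, -0.87 to 0.58 for Slc2a2, -0.30 to 0.45 for Gys2, -0.24 to 0.54 for Pygl and -0.24 to 0.38 for Pcx. Between the sorted cells they ranged from -0.72 to 0.041 for Khk and -0.18 to 0.028 for Pcx. With 1 to 3 samples a group (6 for Mt as a whole), and 3 counts as the floor, small differences may not have been detectable.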
